A study of Homo sapiens with 12 samples.

Results

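Among circular RNAs (circRNAs) recovered with IGF2BP2 or control antibody, hsa_circ_0001772, hsa_circ_0000567, hsa_circ_0008053 and hsa_circ_0087960 are 4 of the 6384 circRNAs in a table of RNA immunoprecipitation sequencing counts. hsa_circ_0001772 is reported to come from RBM33 (circRBM33) and hsa_circ_0000567 from SETD3 (circSETD3). The table pairs no identifier with a host gene, so these hosts are background and the other 2 circRNAs are given by identifier. The 4 were selected on their IgG and pulldown levels in all 12 libraries, as circRNAs heavy in the IgG libraries of resistant cells. Levels and ratios below are therefore descriptions, with no test, and a count of members whose groups do not overlap supports nothing.

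The cells were MDA-MB-231, an established triple-negative breast cancer line. The Sens groups were untreated cells labelled wild type. The Res groups were cells with established resistance to BET inhibitors, kept under continuous inhibitor until harvest, so the resistant state and the presence of the drug cannot be told apart. The compound, its dose and the number of clones are not given in the sources used here. Lysate of each line was precipitated either with a monoclonal antibody against IGF2BP2 (RIP) or with normal rabbit IgG, and there were 3 libraries in each of the 4 groups. The labels do not state whether the replicates were separate cultures, so their spread may be technical. The table holds no linear transcripts, so the cell type could not be checked against marker genes.

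Back-splicing joins the end of an exon to an upstream start and closes a circRNA, which then has no free ends and is slow to decay. IGF2BP2 is a reader of N6-methyladenosine that binds many RNAs and acts on their stability and translation. BET inhibitors displace bromodomain proteins from acetylated chromatin. RBM33 is an RNA-binding protein, and SETD3 is a methyltransferase that modifies a histidine of actin. Non-immune IgG marks the RNA that is recovered without specific binding, and an RNA is commonly read as associated with the target where the specific antibody recovers more of it than IgG does.

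Depth was low throughout. With IgG, a library held 1960 to 2989 circRNA counts in Sens and 3860 to 6036 in Res. With the IGF2BP2 antibody it held 4448 to 5561 and 5179 to 8662. Counts of ERCC spike-in, synthetic RNA mixed with equal amounts of purified RNA, were 56042 to 133928 with IgG and 448 to 764 with the IGF2BP2 antibody. The IgG libraries also differed from the RIP libraries in their make-up: 77.7% of circRNAs found in Sens IgG and 72.0% in Res IgG were in all 3 libraries, against 13.3% in Sens RIP and 16.3% in Res RIP. circRNAs with a single count over the group made up 6.11% and 4.75% in IgG and 52.7% and 45.7% in RIP. In both IgG groups the most frequent summed count of a circRNA was 7. Every pair of replicates differed beyond counting noise (chi-square tests over circRNAs with at least 5 counts in the pair, highest p = 0.000269), so none was treated as a repeated library.

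Each level is given on 2 scales. The share is the percent of a library's circRNA counts, and the spike-in level is counts per 1000 ERCC counts. The spike-in was mixed with equal amounts of purified RNA, so this level need not measure how much an antibody recovered from the lysate. The scales differ by the total circRNA per 1000 ERCC counts, which was 344-fold higher in RIP than in IgG in Sens, 157-fold higher in Res, and 3.10-fold higher in Res than in Sens for IgG and 1.41-fold higher for RIP. A single count is worth 1.31 to 2.23 per 1000 ERCC counts in a RIP library and 0.0075 to 0.0178 in an IgG library. In such bulk libraries, more of a circRNA per cell and stronger recovery of it cannot be told apart. Values after ± are SDs over n = 3 libraries. Intervals are 95% and exact. They cover only the counting error of the circRNA counts, and sequenced copies of 1 molecule would make them too narrow.

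By share, all 4 circRNAs were highest in Res IgG, where each of the 3 libraries lay above each of the 9 other libraries. This held for 29.8% of the 1307 circRNAs that reached 2 counts in 3 or more libraries. All 4 passed that filter. hsa_circ_0087960 passed it in the 6 Res libraries only and hsa_circ_0008053 in the 6 IgG libraries only, so their differences between those groups were built into the filter. By spike-in level, each of the 4 had its highest group mean in a RIP group. A single RIP count is worth more on that scale than any IgG level of the 4, so the unit largely fixes this order, and for hsa_circ_0008053 it rests on 2 RIP counts in overlapping groups. Together the 4 took 3.00% to 3.60% of the circRNA counts of a Res IgG library and 0.703% to 1.00% of a Sens IgG library. Their summed share of a RIP library was 0.234% to 0.377% for Sens and 0.219% to 0.384% for Res.

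**Figure D1:**
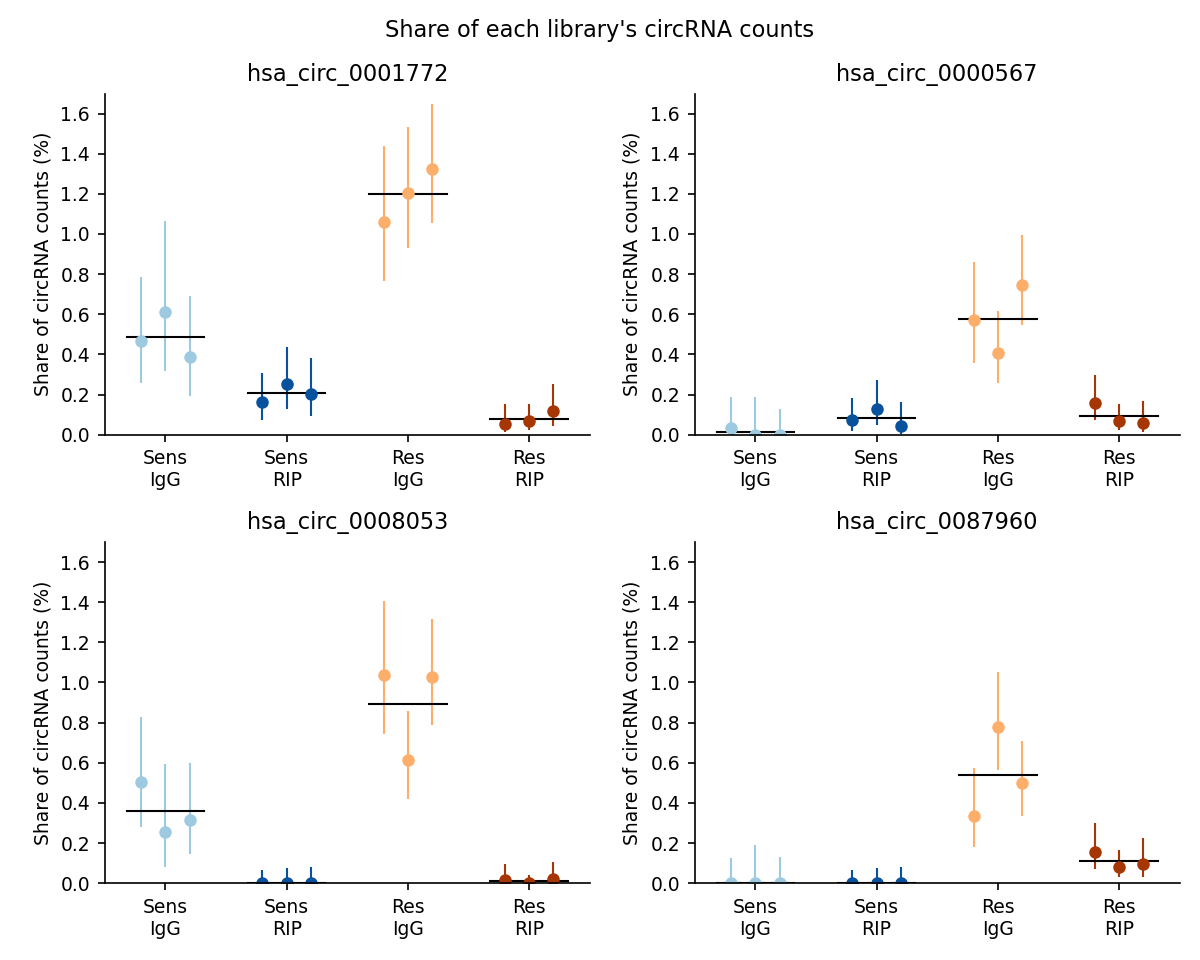
Share of each library's circRNA counts (%, linear axis from 0) for the 4 circRNAs in the 4 groups of 3 libraries; points are libraries with exact 95% binomial intervals, and horizontal lines are group means. The Res IgG libraries stand above the other 9 libraries in every panel, with hsa_circ_0001772 at 1.06% to 1.33%.

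hsa_circ_0001772 (reported circRBM33) was the most abundant circRNA of Res IgG by mean share, and ranked 1, 2 and 1 in the 3 libraries. Its counts were 14, 12 and 11 in Sens IgG, 9, 12 and 9 in Sens RIP, 41, 65 and 80 in Res IgG and 3, 6 and 6 in Res RIP. These are shares of 0.468%, 0.612% and 0.387% in Sens IgG and 0.162%, 0.252% and 0.202% in Sens RIP. In Res they were 1.06%, 1.20% and 1.33% in IgG and 0.0524%, 0.0693% and 0.116% in RIP. The 4 groups did not overlap by share, and their order from high to low was Res IgG, Sens IgG, Sens RIP and Res RIP.

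In Sens the mean share of hsa_circ_0001772 was 0.489% ± 0.114 in IgG and 0.205% ± 0.0449 in RIP, 2.38-fold lower in RIP (interval of the summed counts 1.41 to 3.92). This direction depended on the scaling: the log2 ratio of RIP over IgG was -1.25 by circRNA totals, 0.79 with TMM library sizes, 0.52 with DESeq2's size factors and 7.17 by ERCC totals. In Res the share was 1.20% ± 0.132 in IgG and 0.0792% ± 0.0329 in RIP, 15.1-fold lower in RIP (interval 9.38 to 28.9). TMM and DESeq2 scaling kept that direction, at log2 ratios of -2.93 and -3.02 against -3.92.

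Between lines, hsa_circ_0001772 moved in opposite directions with the 2 antibodies by share. Its Res IgG share was 2.45-fold that of Sens IgG (interval 1.79 to 3.75), and its Res RIP share was 2.59-fold below that of Sens RIP (interval 1.38 to 5.30). The ratio of RIP to IgG was thus 6.35-fold lower in Res than in Sens, a log2 change of -2.67 with an SD of 0.77 from the library spread. Its size depended on the scaling: it was -3.72 with TMM library sizes, -3.54 with DESeq2's size factors and -4.18 with ERCC counts added to the total. Of the change of -2.67, -1.37 lay in the RIP libraries, and the IgG libraries differed by 1.29 in the other direction.

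By spike-in level, hsa_circ_0001772 was at 0.105, 0.134 and 0.0848 per 1000 ERCC counts in Sens IgG and 11.8, 17.8 and 17.0 in Sens RIP. The Res values were 0.732, 0.836 and 0.877 in IgG and 4.29, 8.53 and 13.4 in RIP. Every RIP library was now above every IgG library, 144-fold by means in Sens (interval 86.9 to 242) and 10.7-fold in Res (interval 5.38 to 16.6). Both ratios were below those of total circRNA given above. The Sens and Res RIP libraries overlapped, with a Res to Sens ratio of 0.563 (interval 0.266 to 1.02), while Res IgG was 7.57-fold above Sens IgG (interval 5.53 to 11.6). The RIP to IgG ratio was 13.4-fold lower in Res on this scale (log2 change -3.75, SD 0.89). The IgG libraries differed by 2.92 and the RIP libraries by -0.83 on the log2 scale.

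**Figure D2:**
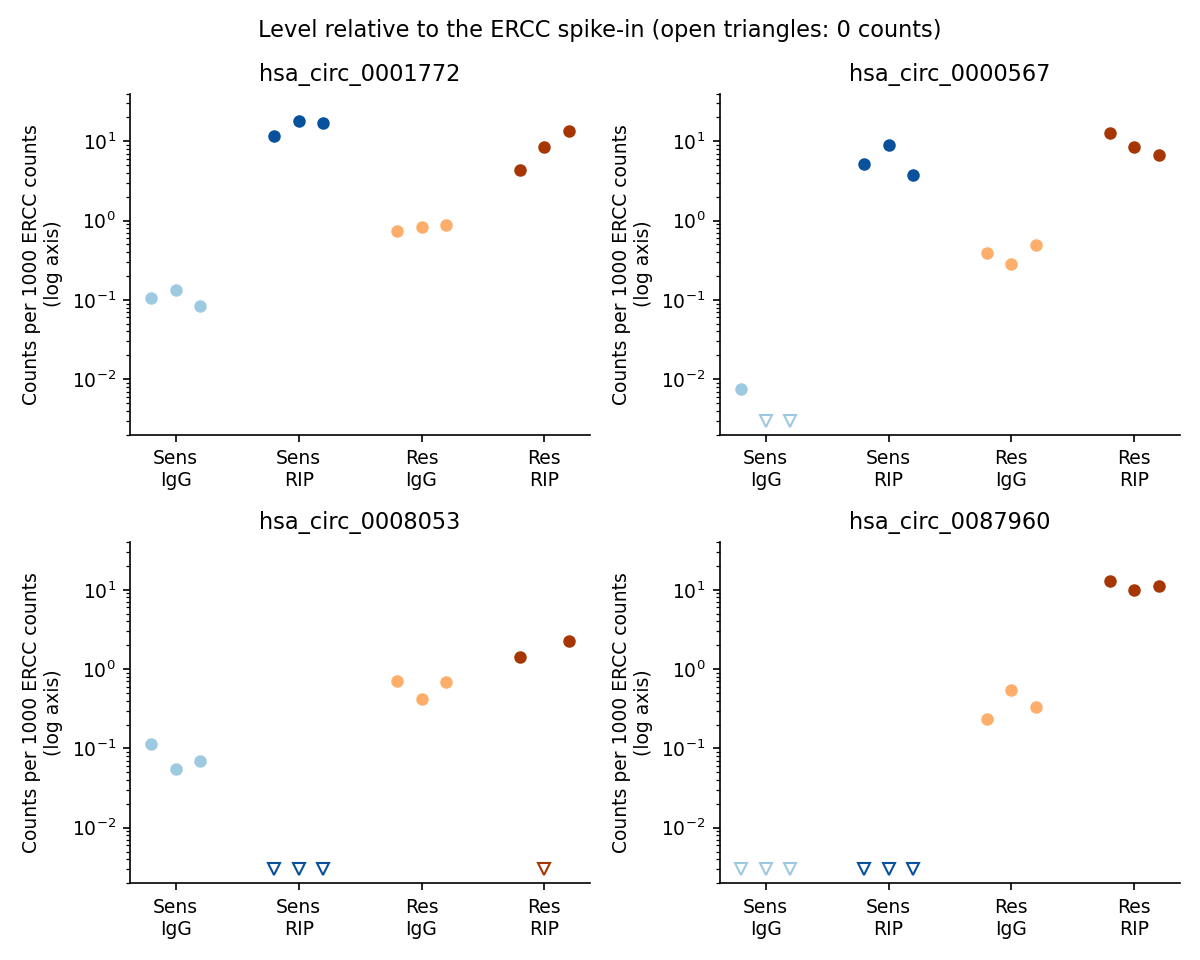
Counts per 1000 ERCC counts (log axis) for the 4 circRNAs in the 4 groups of 3 libraries; filled points are libraries and open triangles at the foot mark libraries with 0 counts, which have no place on a log axis. RIP libraries of hsa_circ_0001772 lie at 4.29 to 17.8 and its IgG libraries at 0.0848 to 0.877.

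hsa_circ_0000567 (reported circSETD3) was nearly missing from Sens IgG and ranked 7th by mean share in Res IgG. Its counts were 1, 0 and 0 in Sens IgG, 4, 6 and 2 in Sens RIP, 22, 22 and 45 in Res IgG and 9, 6 and 3 in Res RIP. The shares in Sens RIP were 0.0719%, 0.126% and 0.0450%, and the 1 Sens IgG count stood for 0.0335%. In Res they were 0.570%, 0.408% and 0.746% in IgG and 0.157%, 0.0693% and 0.0579% in RIP. The RIP libraries of the lines overlapped, and the Res IgG libraries stood apart from all others.

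By share, hsa_circ_0000567 was higher in RIP than in IgG in Sens and lower in Res, with no overlap in either line. The Sens ratio of RIP to IgG by summed counts, 12 against 1, was 6.33 (interval 0.936 to 271). Sens IgG replicate 1 held the 1 IgG count. Without it IgG was at 0, and RIP was 1.30-fold a limit of 3 counts over the group. That figure leaves out the counting error of the RIP counts, so it does not establish a higher RIP share. In Res the share was 0.574% ± 0.169 in IgG and 0.0948% ± 0.0543 in RIP, 6.06-fold lower (interval 3.78 to 11.2). Between lines the IgG ratio by summed counts, 89 against 1, was 45.4 (interval 7.93 to 1812). Without Sens IgG replicate 1 it was 9.20-fold against the limit of 3 counts, with the counting error of the Res counts left out. The RIP ratio of Res to Sens was 1.17 (interval 0.516 to 2.58), and its sign turned without Res RIP replicate 1 (log2 ratio 0.23 with it, -0.35 without), so a difference in RIP share was not detectable at this depth.

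Per 1000 ERCC counts, hsa_circ_0000567 was at 5.24, 8.88 and 3.78 in Sens RIP and 12.9, 8.53 and 6.70 in Res RIP. Its IgG values were 0.0075, 0 and 0 in Sens and 0.393, 0.283 and 0.494 in Res. RIP libraries were above IgG libraries in both lines, by a summed ratio of 2155 in Sens (interval 319 to 92102, resting on 1 IgG count) and 24.0-fold by means in Res (interval 13.9 to 41.1). The direction in Res was thus the opposite of that by share. Without Sens IgG replicate 1, against the limit of 3 counts, the Sens ratio was 437-fold and Res IgG was 28.5-fold above Sens IgG. Both leave out the counting error of the higher group. Without Sens IgG replicate 2 or 3, the ratio of means in Sens fell from 2396 to 1597.5. The Res RIP to Sens RIP ratio was 1.57 (interval 0.727 to 3.63), with overlapping libraries.

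hsa_circ_0008053 was found almost only with IgG. Its counts were 15, 5 and 9 in Sens IgG and 40, 33 and 62 in Res IgG, against 0 in all 3 Sens RIP libraries and 1, 0 and 1 in Res RIP. The IgG shares were 0.502%, 0.255% and 0.316% in Sens and 1.04%, 0.612% and 1.03% in Res, where it ranked 3rd. The IgG groups did not overlap, and Res IgG was 2.49-fold above Sens IgG (interval 1.58 to 3.68).

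In Sens RIP, 0 of 14780 circRNA counts allow a share of hsa_circ_0008053 of up to 0.0203%, which is at least 17.6-fold below Sens IgG at 0.358% ± 0.128. The exact interval of the summed counts, 0 against 29, starts lower, at 14.0-fold. Without Sens RIP replicate 1 the bound from 3 counts was 11.0-fold. In Res, 2 RIP counts stood against 135 IgG counts, a share lower by 86.4-fold (interval 23.5 to 721). Per 1000 ERCC counts the same libraries gave no such contrast. The IgG levels were 0.112, 0.0556 and 0.0694 in Sens, below the 1.52 that 0 counts allow over the Sens RIP group, so the direction in Sens is undetermined there. In Res the RIP values of 1.43, 0 and 2.23 lay on both sides of the IgG values of 0.714, 0.425 and 0.680, and the summed ratio was 1.80 (interval 0.216 to 6.63). The ratio of means was 2.01, and was 3.02 without Res RIP replicate 2 and 1.18 without replicate 3. Res IgG was 7.67-fold above Sens IgG on this scale (interval 4.87 to 11.3).

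hsa_circ_0087960 was counted only in Res libraries. Its counts were 13, 42 and 30 in Res IgG and 9, 7 and 5 in Res RIP, and 0 in all 6 Sens libraries. The Sens libraries allow a share of up to 0.0385% in IgG and 0.0203% in RIP. The Res shares were 0.337%, 0.778% and 0.497% in IgG and 0.157%, 0.0808% and 0.0965% in RIP. The Res antibody groups did not overlap, and RIP was 4.82-fold below IgG by means (interval 3.18 to 8.79).

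Against the limit of 3 counts over the Sens group, hsa_circ_0087960 was at least 14.0-fold higher in Res IgG and at least 5.49-fold higher in Res RIP by share. The exact intervals of the summed counts, which also cover the counting error of the Res counts, start lower, at 11.5 and 3.93. The IgG bound was 8.61-fold without Sens IgG replicate 1 and 8.87-fold without replicate 3, and the RIP bound was 3.43-fold without Sens RIP replicate 1, since fewer counts raise the limit. Per 1000 ERCC counts it was at 0.232, 0.540 and 0.329 in Res IgG and 12.9, 9.96 and 11.2 in Res RIP, 30.8-fold higher in RIP (interval 17.7 to 48.9). The bounds between lines were at least 43.3-fold in IgG and at least 7.43-fold in RIP on this scale, with exact intervals that start at 35.4 and 5.54. They were 26.9-fold and 27.4-fold in IgG without Sens IgG replicates 1 and 3, and 4.55-fold and 4.88-fold in RIP without Sens RIP replicates 1 and 2. Of the 4 circRNAs, it was the one whose RIP libraries were higher in Res than in Sens without overlap, on both scales.

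**Figure D3:**
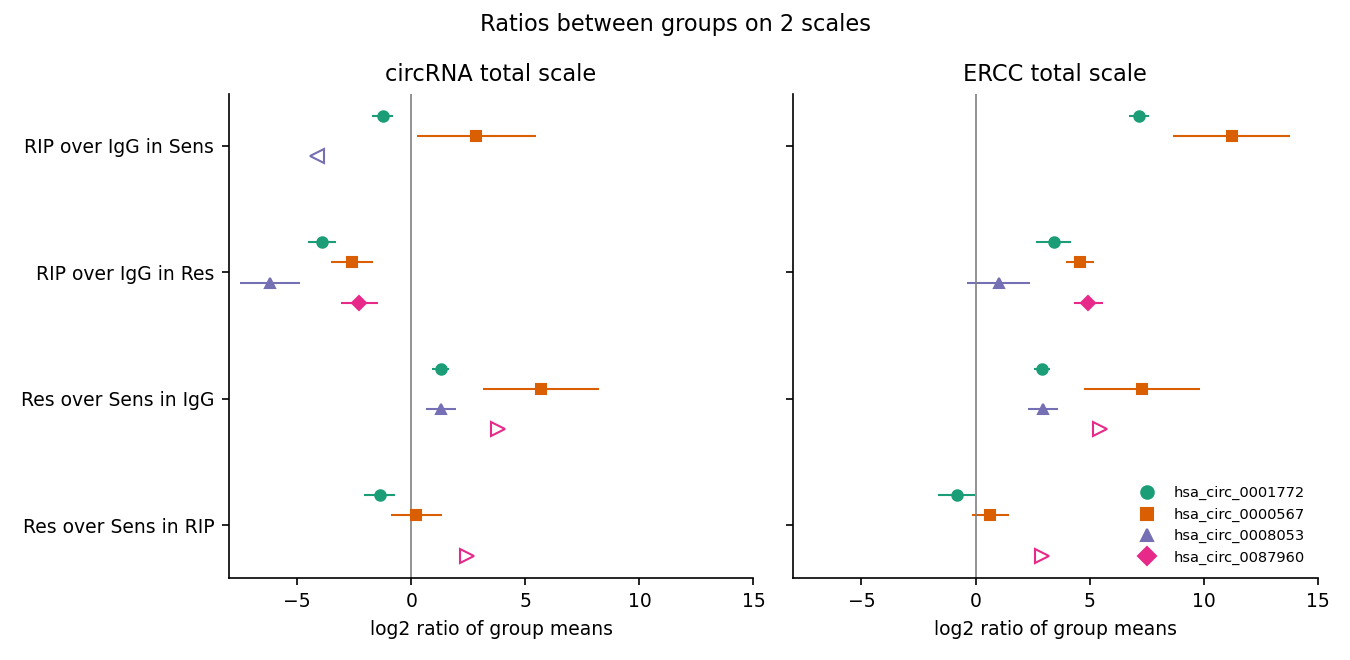
log2 ratios of group means for the 4 circRNAs in 4 comparisons, by circRNA totals (left) and ERCC totals (right); filled symbols carry 1 SD from the library spread, open triangles are bounds against 3 counts over a group at 0 and point the way the true ratio can lie, and ratios with no determined direction are left out. RIP over IgG in Res lies below 0 for all 4 on the left and above 0 for all 4 on the right, where that of hsa_circ_0008053 rests on 2 RIP counts in overlapping groups.

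The counts of members whose groups do not overlap stand here beside the same share over all 1307 circRNAs. By share, RIP lay below IgG without overlap in Res for 4 of 4 and for 36.3% of all, and in Sens for 2 of 4 (hsa_circ_0001772 and hsa_circ_0008053) and for 20.0% of all. RIP lay above IgG in Sens for 1 of 4 (hsa_circ_0000567) and for 22.0% of all. Res IgG lay above Sens IgG for 4 of 4 and for 44.7% of all. Res RIP lay above Sens RIP for 1 of 4 (hsa_circ_0087960) and for 8.65% of all, and below it for 1 of 4 (hsa_circ_0001772) and for 4.06% of all. Since these contrasts chose the 4, nothing is read from the counts.

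By spike-in level the counts were as follows. RIP lay above IgG without overlap in Sens for 2 of 4 (hsa_circ_0001772 and hsa_circ_0000567) and for 29.5% of all, and in Res for 3 of 4 (all but hsa_circ_0008053) and for 39.3% of all. The RIP libraries of hsa_circ_0008053 in Sens, all at 0, counted as below IgG, as did 8.72% of all, although their limit lay above the IgG level. Res IgG lay above Sens IgG for 4 of 4 and for 46.7% of all, and Res RIP above Sens RIP for 1 of 4 and for 12.6% of all. The value of a single RIP count, at least 1.31 per 1000 ERCC counts, was above the highest IgG level of any of the 4, 0.877.

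The place of the 4 among all circRNAs changed with the antibody. In Res IgG they ranked 1st (hsa_circ_0001772), 3rd (hsa_circ_0008053), 7th (hsa_circ_0000567) and 8th (hsa_circ_0087960) of 1243 circRNAs detected, by mean share. In Res RIP, with 4274 detected, the ranks were 179, 1517, 146 and 119 in the same order, where hsa_circ_0006156 led with 2.66% ± 0.0613. In Sens, hsa_circ_0001573 led in IgG with 15.3% ± 1.15 and in RIP with 11.7% ± 0.0228. hsa_circ_0001772 ranked 16 of 475 in Sens IgG and 49 of 3487 in Sens RIP, and hsa_circ_0008053 ranked 36 in Sens IgG. With the leading circRNA of every group taken out of the totals, each of the 16 log2 ratios and changes by share moved by less than 1 SD of its library spread.

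**Figure D4:**
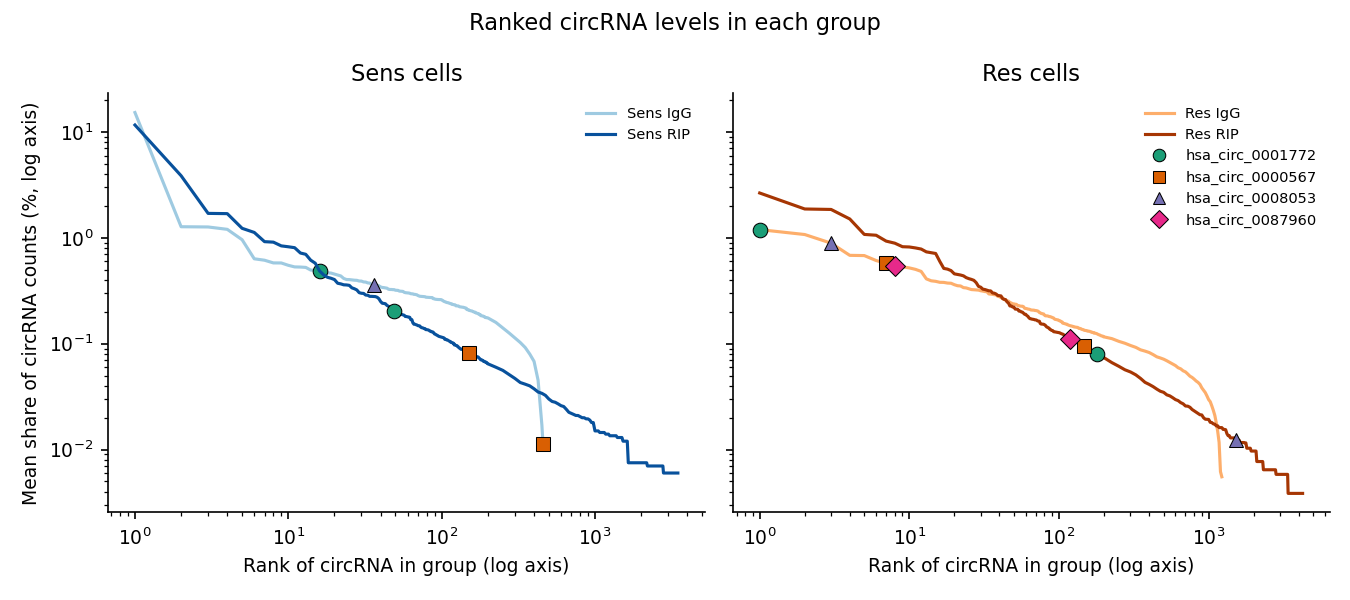
Mean share of circRNA counts (%, log axis) against rank (log axis) in Sens cells (left) and Res cells (right); lines are all circRNAs detected in a group and symbols mark the 4 circRNAs. In Res IgG the 4 sit at ranks 1 to 8, and in Res RIP at ranks 119 to 1517.

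Ratios between the 4 within the same libraries do not depend on any scaling. The summed ratio of hsa_circ_0001772 to hsa_circ_0008053 was 1.28 in Sens IgG (interval 0.764 to 2.15, libraries 0.933 to 2.4). Its direction there was not determined. In Res IgG the ratio was 1.38 (interval 1.10 to 1.73, libraries 1.025 to 1.97), and the intervals of the lines overlapped. In RIP it was 7.5 in Res (15 against 2 counts, interval 1.74 to 67.6), and in Sens 30 counts stood against 0, a ratio above 7.64. hsa_circ_0008053 was chosen for its IgG level and reached 2 counts in no RIP library, so these ratios are a description.

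The proportion of hsa_circ_0001772 to hsa_circ_0000567 also shifted. It was 37 in Sens IgG (37 counts against 1, interval 6.24 to 1500.4), 2.5 in Sens RIP (interval 1.24 to 5.36), 2.09 in Res IgG (interval 1.61 to 2.72) and 0.833 in Res RIP (interval 0.391 to 1.75). The summed ratio of hsa_circ_0000567 to hsa_circ_0087960 in Res was 1.05 in IgG (interval 0.769 to 1.43) and 0.857 in RIP (interval 0.431 to 1.69). The IgG libraries went opposite ways, from 0.524 to 1.69, and the RIP libraries ranged from 0.6 to 1. In Sens RIP there were 12 counts of hsa_circ_0000567 and 0 of hsa_circ_0087960 (ratio above 2.78).

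Replicates of Res IgG gave different variance factors, each from only 3 libraries. Whether the factors differ between the circRNAs was not tested. For hsa_circ_0001772 the observed variance of the counts was 0.675 times that of counting alone. It was 2.80 times for hsa_circ_0000567, 3.48 for hsa_circ_0008053 and 4.26 for hsa_circ_0087960. In the other groups the factor was 0.509 to 1.89 where counts existed. Res IgG replicate 2 had the lowest share of hsa_circ_0000567 and hsa_circ_0008053 and the highest of hsa_circ_0087960, so the libraries did not rank the circRNAs alike.

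Whether the IgG counts of a circRNA stand for fewer molecules was not tested. With the IgG sums divided by their most frequent value of 7, an alternative chosen after seeing the data, hsa_circ_0001772 had 27 units in Res IgG and 5 in Sens IgG, and the interval of its Res to Sens ratio by share widened to 1.04 to 9.15. That of hsa_circ_0008053, with 19 and 4 units, widened to 0.805 to 9.79 and so included 1. hsa_circ_0000567 had 13 units and hsa_circ_0087960 12 in Res. Both had 0 units in Sens, since units were whole numbers and the 1 Sens IgG count of hsa_circ_0000567 was rounded off. The lower bounds of their ratios were then 1.55 and 1.42.

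The submitters define a delta enrichment as RIP minus IgG in RPM (counts per 1000000 counts of a library), Res minus Sens, and take a negative value as a weaker association with IGF2BP2 in resistance. With circRNA counts as the denominator, the delta was -8344 RPM (SE 1057) for hsa_circ_0001772, -5493 (SE 1058) for hsa_circ_0000567, -5216 (SE 1586) for hsa_circ_0008053 and -4259 (SE 1311) for hsa_circ_0087960. These were the 2nd, 4th, 6th and 8th lowest of the 1307, of which 58.5% were below 0. The values chose the members and are no test.

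The parts of the delta differed. For hsa_circ_0001772, RIP minus IgG went from -2839 RPM in Sens to -11182 in Res, and for hsa_circ_0008053 from -3578 to -8794. For hsa_circ_0000567 it went from 697 to -4796. For hsa_circ_0087960 it went from 0 to -4259, although its RIP share was higher in Res than in Sens, at 1115 RPM ± 403 against 0 counts. Deltas with other denominators follow in the order of the preceding paragraph. With all counts of the file, ERCC included, they were -1745 RPM (SE 290), -216 (SE 347), -379 (SE 104) and 668 (SE 216). Per 1000 ERCC counts they were -7.48 (SE 3.23), 3.01 (SE 2.37), 0.693 (SE 0.659) and 11.0 (SE 0.846). Of the 4, hsa_circ_0001772 alone had a negative delta with all 3 denominators. Of all 1307 circRNAs, 58.5% were below 0 with circRNA counts, 51.6% with all counts and 37.9% per 1000 ERCC counts. How many of all were below 0 with all 3 denominators was not counted, so nothing is read from these signs.

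Other circRNAs resembled the 4 in how their share was spread over the 12 libraries. Likeness was the summed minimum of the distributions of 2 circRNAs, 100% when equal, taken over the 53 other circRNAs with at least 100 counts. hsa_circ_0005782 was closest to hsa_circ_0001772 (82.2%, median of the others 36.5%) and to hsa_circ_0008053 (85.4%, median 24.5%), with 23 IgG and 0 RIP counts in Sens and 76 IgG and 2 RIP counts in Res. hsa_circ_0000437 was closest to hsa_circ_0000567 (84.5%, median 36.0%), with 7 IgG and 18 RIP counts in Sens and 103 IgG and 39 RIP counts in Res. The closest to hsa_circ_0087960 was hsa_circ_0000567 (73.1%, median 28.5%). The libraries share depth and the spread of a group, so likeness is a description.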

How the data were processed

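The table the authors deposited holds raw counts for 6384 circRNAs and 57 ERCC transcripts in 12 libraries; all values are whole numbers and totals differ. Genome build GRCh37 is named per the submitters' processing notes. The aligner, circRNA caller and counting rule are not given in the sources used here. Per the labels' protocols the authors scaled to the spike-in with RUVSeq, which the deposited counts do not carry. None of the identifiers matched the reference tables, so no sequence, position or host is printed from files.

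Columns were mapped to samples by library name and groups taken from titles. ERCC rows were left out of circRNA totals. Shares, spike-in levels, ratios and exact intervals (Clopper-Pearson, or conditional binomial for ratios) were computed with Python 3.11.15 and scipy 1.17.1. Ratios and their intervals were checked on simulated counts with counting noise only, without circRNAs of few Sens IgG counts. That check does not cover the larger spread seen in Res IgG or groups near 0. A group at 0 was set to 3 counts over the group. TMM (edgeR 4.0.16) and DESeq2 1.42.0 (poscounts) gave alternative library sizes only. No test was run on the 4 circRNAs, since all 12 libraries served to choose them. A group's libraries overlap unless all lie above or all below those of the other. Named were the 4, for each the circRNA of most like distribution, and the most abundant circRNA of a group where ranks are given. Members and lists were chosen with earlier results of these data known.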

Additional observations from a re-analysis of the deposited data

Results flagged for a closer look

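The antibody groups of hsa_circ_0000567 differed in opposite directions in the lines by share of circRNA counts, although the direction in Sens is not established. Every Sens RIP library was above every Sens IgG library (log2 ratio of means 2.86), and every Res RIP library was below every Res IgG library (log2 ratio -2.60). The difference between the lines was not tested, and the Sens value rests on 1 IgG count. The interval of the Sens ratio by summed counts, 6.33, ran from 0.936 to 271. By spike-in level RIP was above IgG in both lines, with log2 ratios of 11.2 and 4.59. Groups of 3 libraries were not searched for outlying samples.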

How the results depend on the processing

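With TMM library sizes the log2 ratios of hsa_circ_0001772 were 0.79 (RIP over IgG in Sens, sign turned), -2.93 (the same in Res) and 2.30 (Res over Sens in IgG). Those of hsa_circ_0008053 were -2.11 (RIP over IgG in Sens) and 2.27 (IgG), those of hsa_circ_0087960 -1.33 (RIP over IgG in Res) and 4.81 (IgG), and that of hsa_circ_0000567 was -1.62 (RIP over IgG in Res). DESeq2's size factors gave 0.52 (sign turned), -3.02 and 2.24 for hsa_circ_0001772, -2.35 and 2.26 for hsa_circ_0008053, and -1.40 and 4.79 for hsa_circ_0087960, in the same order of comparisons. With all counts of the file as the total they were 4.10 (sign turned), -0.075 and 2.86 for hsa_circ_0001772. RIP over IgG was then 8.19 in Sens and 1.23 in Res (sign turned) for hsa_circ_0000567. For hsa_circ_0008053 it was -2.35 in Res, and the IgG ratio was 2.88. In Sens, 3 counts in place of 0 in RIP gave an upper limit of 1.21, so the direction was undetermined. hsa_circ_0087960 had 1.56 in Res (sign turned) and an IgG ratio of 5.37. The IgG ratios of hsa_circ_0087960, and RIP over IgG of hsa_circ_0008053 in Sens, are bounds against 3 counts over a group at 0. The cause of the turned signs was not tested.

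The delta enrichments with all counts of the file were -1745, -216, -379 and 668 RPM for hsa_circ_0001772, hsa_circ_0000567, hsa_circ_0008053 and hsa_circ_0087960, and per 1000 ERCC counts -7.48, 3.01, 0.69 and 11.0. The value of -216 RPM was smaller than its SE of 347. With 1 count in place of 3 for a group at 0, the log2 bound of hsa_circ_0008053 in Sens was -5.72. Those of hsa_circ_0087960 became 5.39 (IgG) and 4.04 (RIP) by share, and 7.02 and 4.48 by spike-in level. Leaving out 1 library at a time gave log2 bounds of -4.33 to -3.46 for hsa_circ_0008053 in Sens. For hsa_circ_0087960 they were 3.11 to 4.05 (IgG) and 1.78 to 2.64 (RIP) by share, and 4.75 to 5.68 and 2.19 to 2.98 by spike-in level. Of 256 values with 1 library left out, 245 moved by less than 1 SD of the library spread. With 3 libraries in a group, leaving 1 out shifts its mean by less than 1 SD, so this count shows no robustness. The 245 include RIP over IgG of hsa_circ_0000567 in Sens by share, whose log2 ratio went from 2.86 to a bound of 0.37. All others were bounds against a group at 0. Summed counts, totals without the leading circRNA, and the replicate number as a block (1 count added) each kept 16 of 16 values within 1 SD. The SD of hsa_circ_0000567 is wide, at 2.60 and 2.53: with the block and the added count its log2 ratio went from 2.86 to 0.96 (RIP over IgG in Sens) and from 5.69 to 3.55 (Res over Sens in IgG). For hsa_circ_0008053 in Res it went from -6.18 to -5.15, and for hsa_circ_0001772 from -1.25 to -1.22 in Sens and -3.92 to -3.73 in Res.

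The shares of all circRNAs whose groups do not overlap depend on the filter. With every circRNA that has a count they were 5.73% (Sens RIP above IgG), 4.82% (below), 10.2% (Res RIP below IgG), 12.4% (Res IgG above Sens IgG), 2.94% and 1.60% (Res RIP above and below Sens RIP) and 8.65% (Res IgG above the other 9 libraries) by share. By spike-in level they were 7.27% and 2.29% (Sens RIP above and below IgG), 10.9% (Res RIP above IgG), 12.9% (Res IgG above Sens IgG) and 4.20% (Res RIP above Sens RIP). With 10 counts in 3 libraries, those that differed by over 1.5 times were 52.3% (Sens RIP above IgG), 26.1% and 8.11% (Res RIP above and below Sens RIP) and 19.8% (Res IgG above the other 9) by share. By spike-in level they were 82.0% and 2.70% (Sens RIP above and below IgG), 88.3% (Res RIP above IgG) and 35.1% (Res RIP above Sens RIP). Depth limits precision: where above 0, a value rests on 1 to 37 summed counts in Sens IgG, 2 to 30 in the RIP groups and 85 to 186 in Res IgG.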
